A study of Mus musculus with 20 samples.

Results

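The enteric nervous system of the mouse colon was followed through 33 genes, of 32991 genes in all, in the RNA of 20 colons. The genes were chosen by name as known genes of enteric neurons and glia, with earlier results of these data known. They comprised 15 genes of neuronal structure and identity, 9 genes of neuronal transmitters, peptides and subtypes, 6 glial genes, and 3 genes of neural adhesion and growth that neurons and glia share.

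The enteric nervous system lies within the gut wall, as the myenteric plexus between the muscle layers and the submucosal plexus beneath the mucosa. Its neurons arise from neural crest cells that need the receptor RET to colonise the gut, and they drive motility with acetylcholine and tachykinins and relax the muscle with nitric oxide and vasoactive intestinal peptide. Enteric glia surround the neurons and are marked by S100B, GFAP and SOX10, and loss or remodelling of both cell types is a known feature of intestinal inflammation.

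The animals were male C57BL/6 mice per the study's methods, in 4 groups of 5, and their ages are not given in the sources used here. Control mice received double distilled water for 91 days. PZH mice received Pien Tze Huang, a traditional Chinese medicine, at 250 mg/kg per day by gavage over the same 91 days. The AOM/DSS mice, which the labels call Model, received an intraperitoneal injection of 12.5 mg/kg of the colon carcinogen azoxymethane (AOM) and, 7 days later, repeated cycles of 5 days of 2% dextran sulfate sodium (DSS) in the drinking water, which injures the colon lining, and they were gavaged with water. The PZH + AOM/DSS mice received both the AOM/DSS procedure and PZH. The question addressed is how AOM/DSS, and PZH given with it, altered the expression of the colon. Each library came from 1 mouse and mice are named here by the numbers in their labels. Whether tumour tissue was part of the sequenced piece is not given in the sources used here. No genotype, transgene or batch is named.

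Levels are given as FPKM (fragments per kilobase of transcript, scaled to the mapped fragments of the library) summed over the annotated transcripts of a gene. Libraries held an estimated 15.3 to 19.5 M fragments. The labels give the tissue as colon, but their extraction text speaks of a dissected abdominal aorta. Of 12 colon epithelial genes, 10 were at 7.23 FPKM or more in every mouse. The other 2 were not: Epcam was listed at 0 in all 5 Control mice, 3 PZH, 3 AOM/DSS and 2 PZH + AOM/DSS mice and at 233 to 865 FPKM in the rest, and Krt8 ranged from 0.0706 to 3070 FPKM. The sums leave out newly assembled transcripts, so a value at or near 0 can be false, and whether reads went to those was not tested. No member was at 0 in some mice and above 10 FPKM in others, but a partial loss in a member was not tested. Members that never reached 10 FPKM, among them Stmn2, Stmn3, S100b and Gap43, could not show that pattern. For them the check gives no information. Differences are on the log2(FPKM + 1) scale, which understates the change of low genes, and were tested with limma across all genes at 0.5 FPKM or more in at least 5 of the 10 mice compared. A gene is said to rise or fall where its Benjamini-Hochberg adjusted P was under 0.05, and the criteria used by the study, a fold over 2 with an unadjusted P under 0.05, are counted beside it. Members too low for this fit were given an exact two-sided permutation test, whose smallest possible P with 5 against 5 mice is 0.00794. All 33 genes were detected in some mice, and Chat was under 0.5 FPKM in all 20.

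A set of neuronal and glial genes was lower in AOM/DSS mice. Against Control, 12 of the 28 members tested fell, Uchl1, Hand2, Stmn2, Stmn3, Nefl, Nefm, Prph, Slc18a3, Calb2, S100b, Cdh19 and Gap43, and Ret rose. Over the 15812 genes tested, 7.23% fell and 16.4% rose. The filter for testing can be met by the 5 mice of 1 group alone. For S100b, Nefm and Cdh19 the Control mice met it, while the AOM/DSS medians were 0.359, 0.406 and 0.413 FPKM. Slc18a3 met it mostly through Control mice as well, with an AOM/DSS median of 0.247 FPKM. With no filter the calls of Hand2, Slc18a3 and Cdh19 were lost and the 10 others stayed. By the criteria of the study 4 members were lower (Stmn2, Stmn3, Prph and Calb2), against 1.86% of all genes tested, and 1 was higher (Ret), against 5.85%. At an unadjusted P under 0.05, 18 members were lower, where 11.8% of all genes were, and 2 were higher, where 24.2% were. The 5 AOM/DSS mice all lay below the 5 Control mice for 8 members, against 5.43% of all genes, and all above them for 2, Ret and Tac1, against 13%. Over all 33 members 28 differences were negative and the median was -0.44, while the median of all genes tested was 0.09. As a ratio of group means the median member stood at 0.583 of Control and the median of all genes at 1.08. In bulk tissue, fewer cells of a type and less RNA per cell cannot be told apart.

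**Figure D1:**
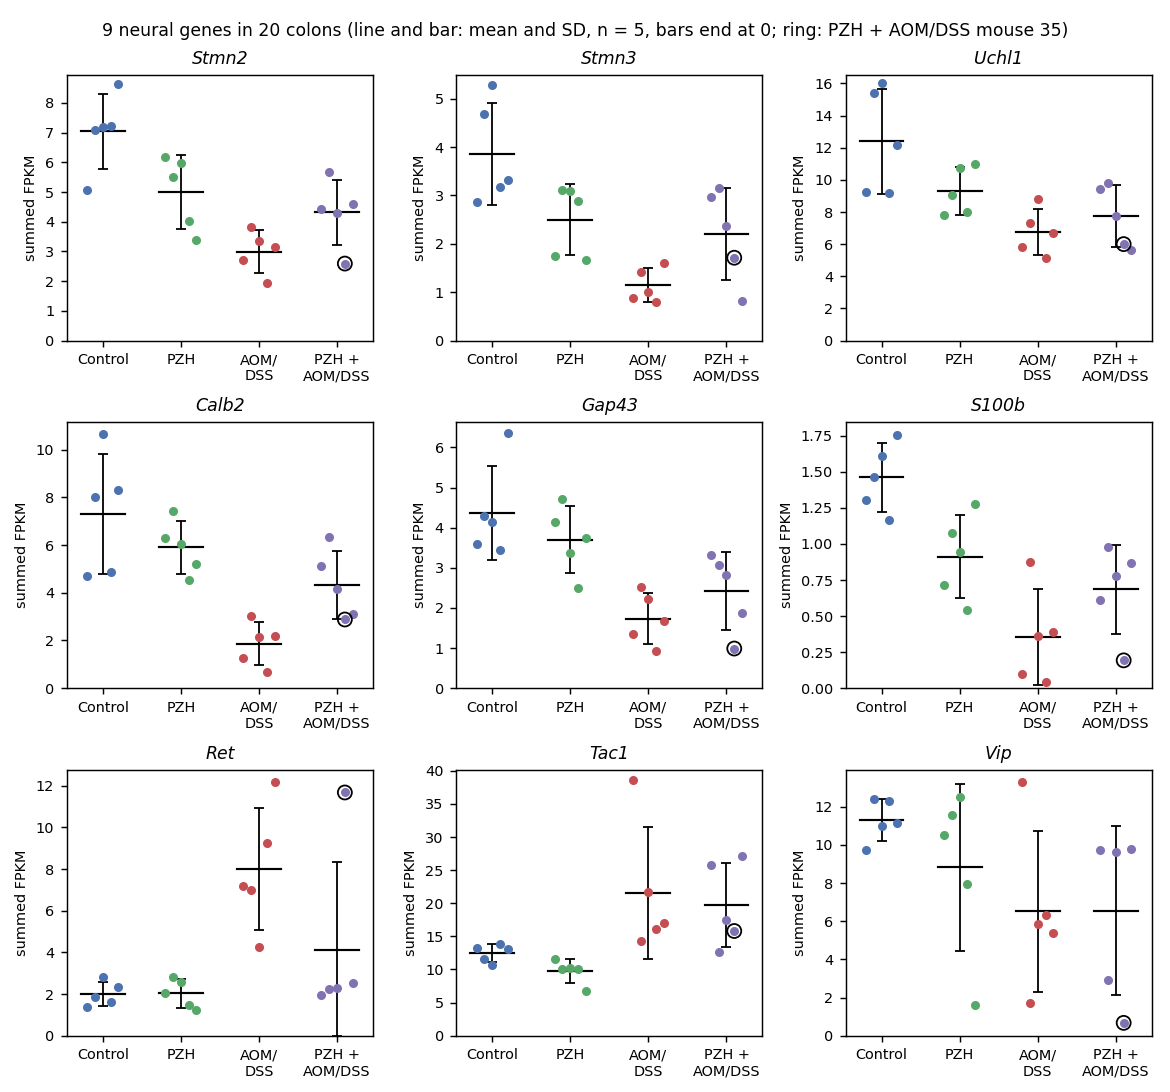
Summed FPKM of 9 members in each of the 20 mice, by group; points are mice, the line and bar are the mean and SD of 5 mice (bars end at 0), and the ring marks PZH + AOM/DSS mouse 35. The AOM/DSS mice lie below all Control mice for Stmn2, Stmn3, Uchl1, Calb2, Gap43 and S100b and above them for Ret and Tac1.

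Among the genes of neuronal structure and identity, 7 of 13 tested fell and 1 rose, and the median of the 15 was -0.56. Stmn3 (ENSMUSG00000027581.12, chr2:181306459-181314500 on the minus strand of GRCm38), a stathmin family protein that regulates microtubules in neurons, stood at 2.86, 4.68, 5.28, 3.18 and 3.32 FPKM in the Control mice and at 0.881, 1.42, 1.01, 0.797 and 1.60 in the AOM/DSS mice. The groups did not overlap, and the highest AOM/DSS mouse was well below the lowest Control mouse. The log2 difference was -1.17 ± 0.17 (SE; limma, adjusted P = 0.000961). These levels rest on an estimated 53.3 to 117 fragments per Control mouse and 15.2 to 32 per AOM/DSS mouse.

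Its relative Stmn2 (ENSMUSG00000027500.10, chr3:8509360-8561606, plus strand), a marker of growing and regenerating axons, had 5.06, 7.09, 7.20, 7.23 and 8.62 FPKM in Control and 2.72, 3.83, 3.34, 1.93 and 3.15 in AOM/DSS. Again no mouse of either group reached the range of the other. Stmn2 fell by 1.01 ± 0.17 on the log2 scale (SE; limma, adjusted P = 0.00194).

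Uchl1 (ENSMUSG00000029223.12, chr5:66676091-66687234, plus strand) encodes PGP9.5, a deubiquitinating enzyme long used to stain enteric nerves. Control mice had 9.28, 15.4, 16, 9.17 and 12.1 FPKM and AOM/DSS mice 5.83, 7.30, 8.81, 5.12 and 6.71. The ranges nearly met, at 8.81 against 9.17 FPKM. The difference was -0.77 ± 0.19 (SE; limma, adjusted P = 0.0139).

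The intermediate filaments of neurons fell as well. The neurofilament light chain gene Nefl was at 1.38 to 1.67 FPKM in Control and at 0.448 to 1.24 in AOM/DSS (log2 difference -0.53 ± 0.13, limma adjusted P = 0.0153). Nefm, the medium chain, was at 0.736 to 1.76 FPKM in Control and 0.187 to 0.510 in AOM/DSS (-0.58 ± 0.13, limma adjusted P = 0.0108). The groups did not overlap for either gene. Nefl lies within the span of Nefm on the opposite strand of chromosome 14, and as the library kit is not stated to mark strand, reads of the pair cannot be assigned with certainty. Prph, which encodes peripherin of peripheral neurons, was at 7.37 ± 2.27 FPKM in Control and 3.18 ± 1.18 in AOM/DSS (SD, n = 5), and its ranges overlapped at 3.77 FPKM in Control mouse 17 (-1.01 ± 0.28, limma adjusted P = 0.0234).

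Ret moved the other way. Ret (ENSMUSG00000030110.13, chr6:118151745-118197718, minus strand), the receptor for GDNF family ligands, was at 1.38, 1.84, 2.80, 1.64 and 2.35 FPKM in Control and at 7.20, 7.02, 4.28, 9.27 and 12.2 in AOM/DSS. Every AOM/DSS mouse exceeded every Control mouse, and the group means were 2.00 ± 0.570 and 7.99 ± 2.94 FPKM (SD, n = 5). Ret rose by 1.54 ± 0.23 (SE; limma, adjusted P = 0.00118). Its co-receptor Gfra1 reached 0.5 FPKM in too few of these mice for the limma fit, at 0.175 to 2.75 FPKM in Control and 0.0844 to 1.14 in AOM/DSS (log2 difference -0.67, exact permutation P = 0.119, 0.664 adjusted over the 20 tests of this kind).

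Ret is not confined to neurons, since immune cells and other cells express it, and leukocyte genes were also higher in AOM/DSS than in Control. Of 10 leukocyte genes 6 rose and 0 fell (0 at an unadjusted P under 0.05 as well), led by S100a8 (5.21), Itgax and Itgam, and their summed level was 183 to 397 FPKM in Control and 400.1 to 685 in AOM/DSS. No gene of that list was at 0 in all mice. In PZH + AOM/DSS mice 2, 13, 15 and 36 Ret was at 1.95 to 2.51 FPKM, within the Control range. Their mean leukocyte level, as log2(FPKM + 1), was 3.45 to 3.97, above the 2.46 to 3.13 of Control. In mouse 35 Ret was at 11.7 FPKM and the leukocyte level at 4.11. The part of leukocytes in the level of Ret was not tested.

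The transcription factors differed among themselves. Hand2, which directs enteric neuron differentiation and is also expressed in gut mesenchyme, was at 5.96 ± 1.90 FPKM in Control and 3.18 ± 1.05 in AOM/DSS (SD, n = 5; log2 difference -0.73 ± 0.22, limma adjusted P = 0.0336), with an overlap of ranges at 4.10 to 4.79 FPKM. Phox2a, of autonomic neurons, had a difference of -0.23 ± 0.14 (limma, adjusted P = 0.265). The RNA-binding protein genes Elavl4 (-0.29 ± 0.12, limma adjusted P = 0.107) and Elavl3 (-0.10, exact permutation P = 0.333), which encode the pan-neuronal Hu antigens, did not pass. Elavl3 was at 0.567 FPKM at most in the Control mice and at 0.333 at most in the AOM/DSS mice.

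The genes general to neurons and their synapses had negative differences without passing the adjusted threshold. Snap25, a SNARE protein of synaptic vesicle release, was at 3.82 to 6.76 FPKM in Control and 1.62 to 4.35 in AOM/DSS (-0.56 ± 0.20, limma adjusted P = 0.0717). The vesicle calcium sensor Syt1 (-0.28 ± 0.14, adjusted P = 0.183) and the neuronal tubulin gene Tubb3 (-0.34 ± 0.20, adjusted P = 0.249) differed less than their spread among mice allowed to be called by limma.

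Transmitter genes were mixed. Calb2 and Slc18a3 fell among the 7 tested, none rose (1, Tac1, was higher at an unadjusted P under 0.05), and the median of the 9 was -0.04. Calb2 (ENSMUSG00000003657.9, chr8:110137502-110168210, minus strand) encodes calretinin, a calcium-binding protein of enteric neuron subtypes that pathologists use to assess colonic innervation. It was at 4.71, 8, 10.7, 4.88 and 8.32 FPKM in Control and at 1.27, 3.02, 2.14, 0.695 and 2.19 in AOM/DSS, with no overlap. Its difference of -1.55 ± 0.27 (SE; limma, adjusted P = 0.00255) was the most negative among the 33. Calretinin is also made by mesothelium, and of 6 mesothelial genes Msln rose (1.84) and Krt19 fell (-0.75), while Wt1 stayed under 0.5 FPKM in all mice. Only 2 of the 6, Msln and Krt19, were tested, and over the 6 genes 4 differences were negative and 2 positive. Krt19, which colon epithelium also expresses, made up nearly all of the summed level of that list (1587 to 2138 FPKM in Control and 957 to 1217 in AOM/DSS). The 5 other genes summed to 0.0338 to 3.27 FPKM in Control and 2.87 to 6.46 in AOM/DSS. Of these, Msln alone was at 0 to 0.937 FPKM in Control and 2.86 to 6.27 in AOM/DSS. The part of mesothelium in the level of Calb2 was not tested.

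The cholinergic pair was low. Slc18a3, the vesicular acetylcholine transporter, was at 0.405 to 1.25 FPKM in Control and 0.171 to 0.539 in AOM/DSS (-0.45 ± 0.14, limma adjusted P = 0.0448). Chat, the acetylcholine-synthesising enzyme, was at 0.0821 to 0.189 FPKM in Control and 0 to 0.232 in AOM/DSS (-0.04, exact permutation P = 0.548). Slc18a3 lies inside Chat on the same strand, so their reads can be split only in part, and Chat is also a tuft cell gene. Of 8 tuft genes 2 rose, among them Avil (2.26), Il25 was under 0.5 FPKM in all mice, and the summed list was at 4.33 to 13.7 FPKM in Control and 14.6 to 30.8 in AOM/DSS.

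Of the inhibitory transmitters, Nos1, the neuronal nitric oxide synthase, was at 1.57, 1.58, 2.27, 2.11 and 0.751 FPKM in Control and 1.00, 0.777, 1.03, 0.801 and 0.948 in AOM/DSS (-0.44 ± 0.16, limma adjusted P = 0.0731). Control mouse 50 lay below all AOM/DSS mice and the other Control mice lay above them, so the ranges overlapped. Vip was at 9.72 to 12.4 FPKM in Control and spread from 1.72 to 13.3 in AOM/DSS (-0.90 ± 0.34, limma adjusted P = 0.0852).

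Tac1, which encodes substance P and neurokinin A, was at 13.3, 11.5, 10.6, 13.8 and 13.1 FPKM in Control and at 38.6, 14.2, 21.7, 16.2 and 16.9 in AOM/DSS. All AOM/DSS mice were above all Control mice, the nearest at 14.2 against 13.8, but the adjusted threshold was not passed (0.66 ± 0.23, limma adjusted P = 0.0627). Tac1 is also expressed by enteroendocrine cells. Of 12 enteroendocrine genes Sst fell (-0.75) and Nts rose, and their summed level was 237 to 486 FPKM in Control and 205 to 344 in AOM/DSS, whose part in the level of Tac1 was not tested.

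The remaining peptides, all of which modulate enteric circuits, did not pass in either direction. Npy (neuropeptide Y) had a difference of 0.36 ± 0.36 (limma, adjusted P = 0.517) and Gal (galanin) one of 0.25 ± 0.51 (adjusted P = 0.771). Cartpt (-0.01, exact permutation P = 0.984) was at 0.291 to 1.69 FPKM in Control and 0.229 to 2.48 in AOM/DSS. AOM/DSS mouse 23 had the highest level of its group for Tac1, Vip, Gal and Cartpt.

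Of the 6 glial genes, S100b and Cdh19 fell among the 5 tested and none rose (0 at an unadjusted P under 0.05), with a median of -0.39 over the 6. S100b (ENSMUSG00000033208.7, chr10:76253853-76261159, plus strand), a calcium-binding protein and the usual marker of enteric glia, was at 1.31, 1.47, 1.61, 1.16 and 1.76 FPKM in Control and at 0.0992, 0.877, 0.359, 0.04 and 0.392 in AOM/DSS. No AOM/DSS mouse reached the Control range, and mouse 44 had an estimated 1.00 fragment. The difference was -0.89 ± 0.16 (SE; limma, adjusted P = 0.00284).

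Cdh19, a cadherin of neural crest glia, was at 1.05 ± 0.348 FPKM in Control and 0.411 ± 0.307 in AOM/DSS (SD, n = 5; -0.55 ± 0.16, limma adjusted P = 0.0339). Sox10, the transcription factor of glia and their progenitors, was at 1.42 ± 0.875 and 0.549 ± 0.359 FPKM (-0.61 ± 0.23, limma adjusted P = 0.0873). Gfap, the glial intermediate filament (-0.23 ± 0.17, adjusted P = 0.366), and Ngfr, the p75 neurotrophin receptor (-0.16 ± 0.16, adjusted P = 0.517), had the smallest differences among the glial genes. Fabp7, a fatty acid-binding protein of glial progenitors, pointed upward at 0.430, 0.383, 0.660, 1.32 and 0.717 FPKM against 0.188, 0.497, 0.374, 0.226 and 0.0667 in Control (0.41, exact permutation P = 0.0317, 0.317 adjusted over the 20 tests), and its ranges overlapped.

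Gap43, a growth-cone protein found in neurons and glia, was at 3.58, 4.29, 4.15, 3.45 and 6.36 FPKM in Control and at 1.35, 2.52, 2.21, 0.919 and 1.67 in AOM/DSS. The groups did not overlap and Gap43 fell by 0.98 ± 0.20 (SE; limma, adjusted P = 0.00545). The adhesion molecules Ncam1 (-0.44 ± 0.19, limma adjusted P = 0.130) and L1cam (-0.27 ± 0.19, adjusted P = 0.331) did not pass. The median differences of the 24 neuronal genes, -0.45, and of the 6 glial genes, -0.39, lay close together, and no difference between the neuronal and glial lists was tested.

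**Figure D2:**
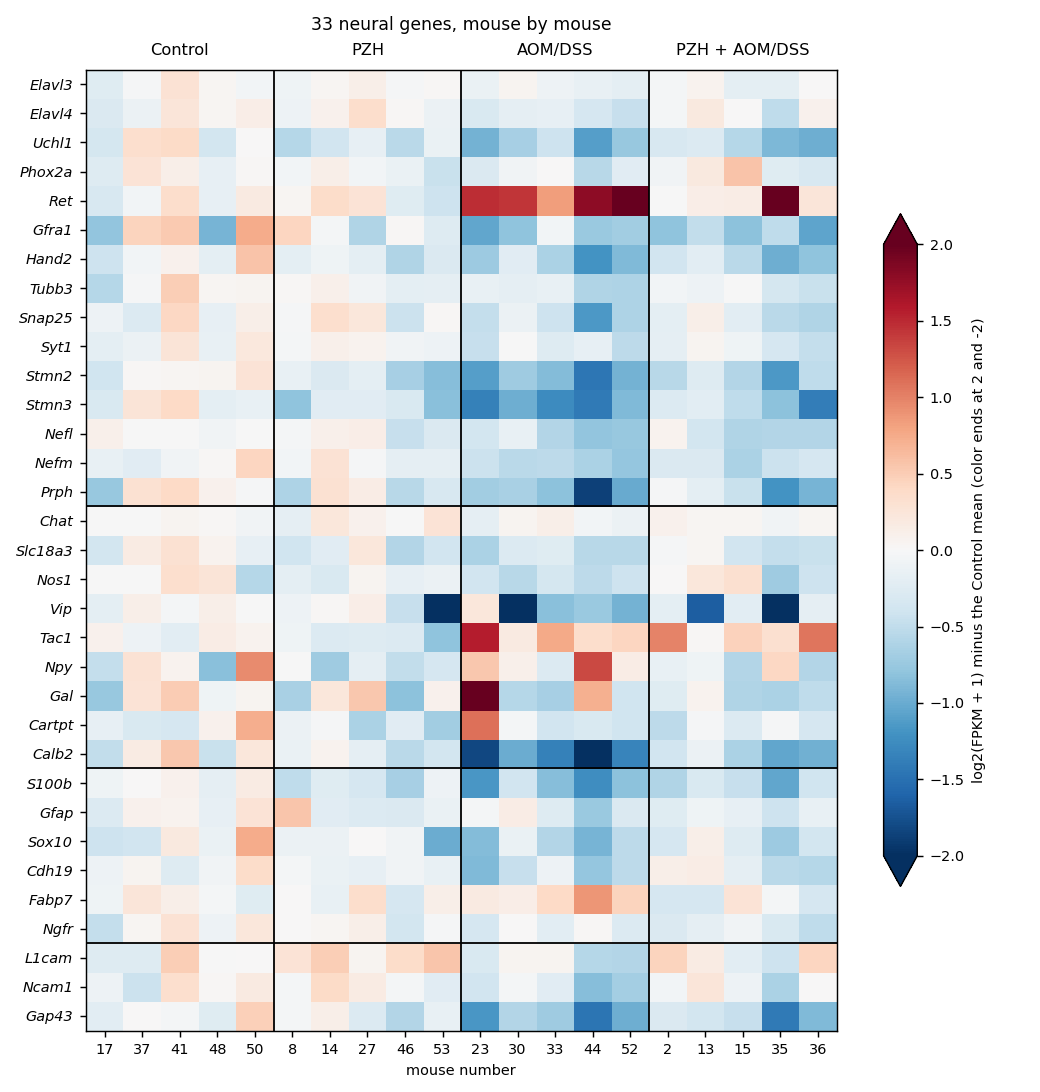
Each of the 33 members (rows, by role) in each of the 20 mice (columns, by group), as log2(FPKM + 1) minus the Control mean of the gene, with the color scale ending at ±2. The AOM/DSS columns are mostly below Control for Stmn2, Stmn3, Prph and Calb2 and above it for Ret, and PZH + AOM/DSS mouse 35 shares the high Ret of the AOM/DSS mice.

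Leaving out each of the 10 mice in turn, Uchl1, Ret, Stmn2, Stmn3, Nefl, Nefm, Calb2, S100b and Gap43 passed in all 10 fits. The 4 other calls were lost without some mice. Prph passed in 7 of 10 fits, Hand2 and Slc18a3 in 3 and Cdh19 in 2. Control mouse 17 was the lowest of its group for 18 of 33 members, while it was the lowest for 30.2% of all genes, and AOM/DSS mouse 44 was the lowest of its group for 14 members and 17.4% of all genes.

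The smooth muscle that houses the myenteric plexus moved in the same direction. Of 14 smooth muscle genes 10 of 12 tested fell, with a median of -1.10, led by Myh11 (-1.49), Tpm2 (-1.47) and Acta2 (-1.33). Their summed level was 2655 to 6092 FPKM in Control, 1283 to 2852 in PZH, 1094 to 2067 in AOM/DSS and 1039 to 2708 in PZH + AOM/DSS, and no gene of the list was at 0 in all mice. With the mean smooth muscle level of each mouse as a covariate, 0 members fell and 0 rose (limma), and 320 genes passed in place of 3739. In that limma fit Stmn3 (-1.19, unadjusted P = 0.0048), Ret (1.45, unadjusted P = 0.00866) and Nos1 (-0.92, unadjusted P = 0.00389) had unadjusted P-values under 0.05, and Hand2 turned to 0.10. The share of all genes under 0.05 in that fit is not given here, so these P-values do not set the members apart from other genes. The mean smooth muscle level did not overlap between AOM/DSS and Control, so the share of muscle in the tissue piece and the group cannot be told apart.

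**Figure D3:**
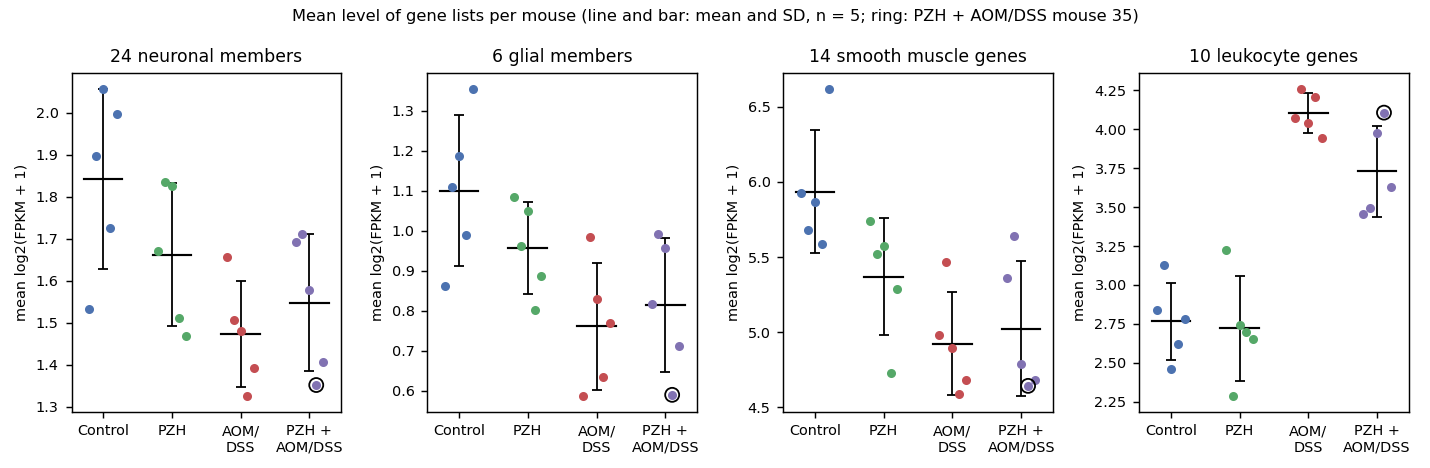
Mean log2(FPKM + 1) per mouse of the 24 neuronal members, the 6 glial members, 14 smooth muscle genes and 10 leukocyte genes, by group; points are mice and the line and bar are the mean and SD of 5. Smooth muscle spans 5.59 to 6.62 in Control and 4.59 to 5.47 in AOM/DSS, and leukocyte genes 2.46 to 3.13 and 3.94 to 4.26.

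Other genes of the pathway moved both ways. Of 50 further neuron genes 10 fell and 4 rose among the 32 tested, with a median of -0.19. Syn2, a synaptic vesicle phosphoprotein, was at 5.31 to 6.88 FPKM in Control and 0.681 to 2.53 in AOM/DSS (-1.59 ± 0.22, limma adjusted P = 0.000592). Stx1a, a SNARE protein that other secretory cells also express, was at 1.01 to 1.75 FPKM in Control and 6.47 to 11.2 in AOM/DSS (1.93 ± 0.17, limma adjusted P = 3.19e-05). Tbx3, a T-box transcription factor of several cell types, was at 1.61 to 2.57 and 4.09 to 29.4 FPKM (1.95 ± 0.38, limma adjusted P = 0.0042).

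Of 21 further glia genes 4 fell and 4 rose among the 16 tested, with a median of -0.13. Ptprz1, a receptor tyrosine phosphatase, was at 1.13 to 2.57 FPKM in Control and 7.24 to 18.8 in AOM/DSS (2.03 ± 0.23, limma adjusted P = 0.000189). Cryab, a small heat shock protein, fell by 0.79 (SE 0.21; limma, adjusted P = 0.0207). Among 24 neurotrophic signals and receptors 4 fell and 3 rose of 17 tested, including the cytokine Lif (1.16) and the glial growth factor Nrg1 (1.06) upward and Bmp2 (-0.91) downward.

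Marker genes of other cells in the wall moved in both directions. Among 6 genes of interstitial cells of Cajal, Cd34 fell and Gpr20 rose. Of 9 fibroblast genes Col1a1 (0.95) was among 2 that rose and Lum (-1.14) fell, of 12 colon epithelial genes 4 fell, led by Slc26a3 (-2.39), and of 6 fat genes Fabp4 (-0.63) fell. Summed levels in Control and AOM/DSS were 50.1 to 66.8 and 40.4 to 57.8 FPKM for the Cajal cell list, 361 to 583 and 468 to 561 for fibroblasts, 4407 to 5547 and 2733 to 4075 for the 10 epithelial genes without Epcam and Krt8, and 28.3 to 41.6 and 15.4 to 28.2 for fat.

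PZH given with AOM/DSS left no member past the adjusted threshold against AOM/DSS alone. Of 26 members tested with limma 0 rose and 0 fell, where 0.00629% of the 15888 genes tested rose and 0% fell. At an unadjusted P under 0.05, Calb2 and Stmn3 were higher, against 3.51% of all genes, and Ret was lower, against 8.21%. Ret was also the 1 member lower by the criteria of the study, which 2.01% of all genes met in that direction. Over the 33 members 24 differences were positive, with a median of 0.16 beside -0.04 for all genes tested. This comparison and AOM/DSS against Control share the AOM/DSS mice, so opposite signs in the pair are not independent.

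**Figure D4:**
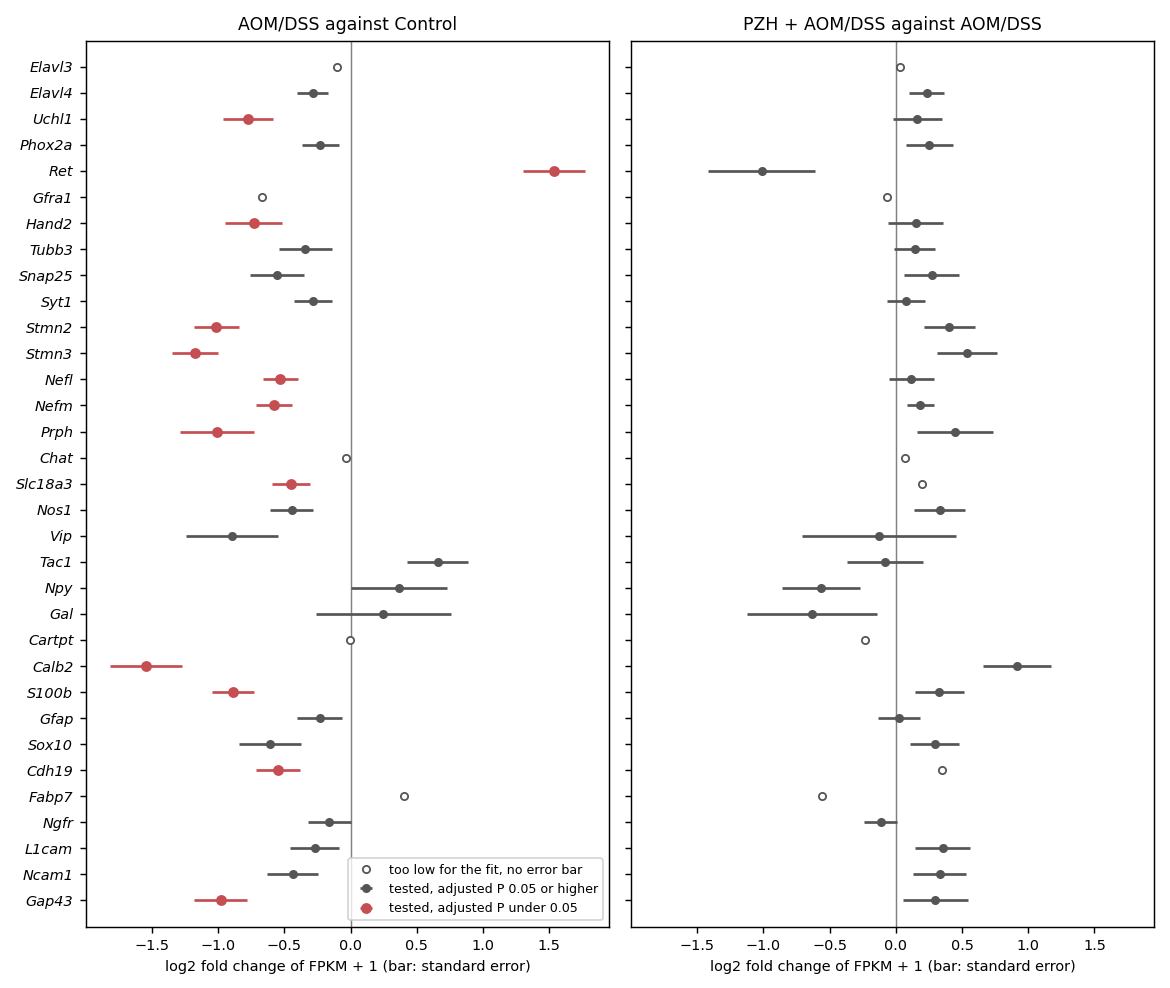
Log2 differences of the 33 members with their SE for AOM/DSS against Control and for PZH + AOM/DSS against AOM/DSS; red marks an adjusted P under 0.05 and hollow symbols mark members too low for the limma fit. Red symbols appear in the first comparison, 12 lower and 1 higher, and none in the other.

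Calb2 was at 5.11, 6.34, 4.14, 2.88 and 3.12 FPKM in the PZH + AOM/DSS mice 2, 13, 15, 35 and 36. Mouse 35 lay within the AOM/DSS range, which ended at 3.02, mouse 36 was just above it, and the others were higher. The difference was 0.92 ± 0.26 (SE; limma adjusted P = 0.356).

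Stmn3 was at 2.97, 3.14, 2.38, 1.71 and 0.824 FPKM in the same order of mice, so that 4 of 5 exceeded the AOM/DSS maximum of 1.60 and mouse 36 lay at the bottom of that range (0.54 ± 0.23, limma adjusted P = 0.400). Stmn2 was at 4.43, 5.67, 4.28, 2.59 and 4.59 FPKM (0.40 ± 0.19, limma adjusted P = 0.442). For Stmn2 mouse 35 was the mouse within the AOM/DSS range of 1.93 to 3.83.

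Ret was at 1.95, 2.26, 2.29, 11.7 and 2.51 FPKM. The 4 other mice were within the Control range of 1.38 to 2.80 and below every AOM/DSS mouse, and mouse 35 was near the AOM/DSS maximum (-1.01 ± 0.40, limma adjusted P = 0.386). Without mouse 35, Ret fell by 1.41 (limma, adjusted P = 0.0125), and 808 genes passed in that fit in place of 1. Of other members, Calb2 (1.02, limma adjusted P = 0.0598) and Stmn2 (0.54, adjusted P = 0.0926) did not pass without it, and the median over the 33 became 0.25. Mouse 35 is singled out here for its own member values, Ret above all. The P-values without it are therefore descriptive only.

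S100b was at 0.609, 0.976, 0.780, 0.193 and 0.865 FPKM with PZH + AOM/DSS, and its difference from AOM/DSS was 0.33 ± 0.19 (limma, adjusted P = 0.514). Only mouse 13 exceeded the highest AOM/DSS mouse, at 0.877. Among the other glial genes Sox10 had 0.29 ± 0.19 (adjusted P = 0.549), Gfap 0.02 ± 0.16 (adjusted P = 0.971) and Ngfr -0.11 ± 0.12 (adjusted P = 0.743) by limma. Fabp7 was listed at 0 in mice 2, 13 and 36, at 0.531 in mouse 15 and at 0.225 in mouse 35 (-0.56, exact permutation P = 0.0238, 0.317 adjusted over the 20 tests), on fewer than 20 estimated fragments in any mouse of either group. Cdh19, also too low for the fit here, had a difference of 0.35 (exact permutation P = 0.143).

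Uchl1 was at 9.46, 9.82, 7.78, 6 and 5.63 FPKM (0.16 ± 0.18, limma adjusted P = 0.751) and Gap43 at 3.33, 3.07, 2.82, 0.987 and 1.86 (0.30 ± 0.24, adjusted P = 0.647). For both genes mice 35 and 36 lay within the AOM/DSS range, as mouse 15 did for Uchl1. The peptide genes Tac1 (-0.08 ± 0.28, adjusted P = 0.936) and Vip (-0.13 ± 0.58, adjusted P = 0.952) were spread widely in both groups, and Npy (-0.56 ± 0.29, adjusted P = 0.476) and Gal (-0.63 ± 0.49, adjusted P = 0.627) did not pass the limma test.

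The PZH + AOM/DSS mice were unlike one another. Mouse 13 was the highest of its group for 18 of 33 members and 17.4% of all genes. It was above the AOM/DSS range for 21 members, mouse 2 for 14, mouse 15 for 9, mouse 36 for 6 and mouse 35 for 1. Mouse 35 was within the AOM/DSS range for 28 members. The shares of all genes above or within that range are not given here, so these counts are not set apart from the whole library. Mouse 35 was the lowest of its group for 17 members and 19.3% of all genes, and the highest for 2 members and 32.7% of all genes. The further genes Stx1a (10.8 FPKM in mouse 35, 1.45 to 2.79 in the other mice), Ptprz1 (11.7 against 0.705 to 4.60) and Tbx3 (24.9 FPKM in mouse 35) were also high in that mouse.

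Compared with Control, the PZH + AOM/DSS mice had 0 of 29 tested members past the adjusted threshold of limma, where 0.871% of the 15616 genes tested fell and 1.55% rose. At an unadjusted P under 0.05, 10 members were lower (Uchl1, Gfra1, Hand2, Stmn2, Stmn3, Nefl, Nefm, Calb2, S100b and Gap43), against 7.93% of all genes, and 1, Tac1, was higher, against 12.9%. The groups did not overlap for Nefm, S100b and Gap43, all lower, as for 2.59% of all genes. Over the 33 members 28 differences were negative, with a median of -0.25 beside 0.06 for all genes tested. S100b had -0.56 ± 0.15 (adjusted P = 0.0744) and Stmn2 -0.61 ± 0.19 (adjusted P = 0.105) by limma. With all 20 mice in one limma model, Uchl1 (adjusted P = 0.0412), Stmn2 (adjusted P = 0.0437) and S100b (adjusted P = 0.0335) passed as lower.

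PZH alone changed no member past the adjusted threshold. Against Control 0 of 29 tested members passed (limma), where 0.00645% of the 15506 genes tested fell and 0% rose. At an unadjusted P under 0.05, Stmn2, Stmn3, Tac1 and S100b were lower, against 4.5% of all genes, and L1cam was higher, against 4.34%. Stmn2 was at 6.17, 5.49, 5.98, 4.02 and 3.38 FPKM with PZH (-0.43 ± 0.18, limma adjusted P = 0.545) and S100b at 0.717, 1.08, 0.942, 0.543 and 1.27 (-0.37 ± 0.13, limma adjusted P = 0.520). The ranges of the PZH and Control mice overlapped for both. L1cam, a neural adhesion molecule that epithelial and immune cells can also express, was at 21.9, 25.7, 18.7, 23.4 and 26.6 FPKM against 14.8 to 25.7 in Control (0.35 ± 0.16, limma adjusted P = 0.559). Of the 33 differences 26 were negative, with a median of -0.12 beside 0.01 for all genes tested, and smooth muscle was at 4.73 to 5.74 (mean log2) in PZH against 5.59 to 6.62 in Control. Its part in these values was not tested.

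Whether the difference made by PZH depended on AOM/DSS was tested as an interaction over all 20 mice. Of 31 members tested 0 passed in either direction (limma), where 0.0059% of the 16936 genes tested passed upward and 0.0059% downward. At an unadjusted P under 0.05, Stmn3 (1.01 ± 0.30), Calb2 (1.14 ± 0.35), Stmn2 (0.83 ± 0.26) and S100b (0.70 ± 0.23) were positive, against 3.41% of all genes, with limma adjusted P from 0.350 to 0.359. Ret (-1.01 ± 0.46, adjusted P = 0.467) and Fabp7 (-0.56 ± 0.22, adjusted P = 0.416) were negative, against 6.92%. Without PZH + AOM/DSS mouse 35, Ret (-1.41, adjusted P = 0.0156), Stmn2 (0.97, adjusted P = 0.0361) and S100b (0.82, adjusted P = 0.0427) passed, in a fit where 476 genes passed in place of 2. As that mouse is singled out for its values of these members, the P-values without it are descriptive only. For Stmn2, Stmn3 and S100b the PZH difference was -0.43, -0.48 and -0.37 without AOM/DSS and 0.40, 0.54 and 0.33 with it, none of which passed on its own. Smooth muscle genes moved the same way, with a positive interaction for 14 of 14 and a median of 0.73, while 27 of the 33 members were positive with a median of 0.24 (-0.05 over all genes tested). Of 13 smooth muscle genes tested 0 passed by limma and 2 were positive at an unadjusted P under 0.05, and their part in the members' values was not tested.

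The start regions of the genes were read for short motifs, because a set of these peptide genes is known to respond to cyclic AMP through the factor CREB and neuronal genes are known to be silenced elsewhere by the factor REST. RefSeq promoters (GRCm38.p6) were matched for 23 of the 33 members, and 5 motifs were searched on both strands in the 250 bases before the start. TGACG, the core of the CREB site, was in 8 of the 23 (Elavl4, Hand2, Chat, Slc18a3, Nos1, Vip, Tac1 and Cartpt), 6 of them among the 8 matched transmitter genes, and in 19.8% of 27025 genes. The parts of the REST element, AGCACC and GGACAG, were each in 4 members and in 15.1% and 21% of all genes. The joined element AGCACCNNGGACAG was in 0 members and 0.0518% of all genes, and the SOX site ACAAAG was in 2 members (Syt1 and Stmn3) and 18.6% of all genes. Vip holds TGACG and did not pass in any comparison, and Stmn3 holds none and fell in AOM/DSS. Hand2 and Slc18a3, which hold TGACG, also fell in AOM/DSS, and a link of motif and change was not tested. Vip and Stmn3 are shown as examples with the 150 bases before their starts, 5′ to 3′ on the gene's strand. Capitals mark TGACG, at 79 to 75 bases before the start of Vip, which is a match of letters and not a shown binding site.
Vip (chr10:5639068-5639217, plus strand): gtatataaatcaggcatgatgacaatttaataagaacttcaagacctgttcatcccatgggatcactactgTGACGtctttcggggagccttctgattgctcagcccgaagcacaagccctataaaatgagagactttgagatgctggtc
Stmn3 (chr2:181314501-181314650, minus strand): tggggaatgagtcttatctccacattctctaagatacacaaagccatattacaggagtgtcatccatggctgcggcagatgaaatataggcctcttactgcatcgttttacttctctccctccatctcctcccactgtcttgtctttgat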

How the data were processed

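Total RNA from 20 mice, of tissue labelled colon, was depleted of ribosomal RNA and sequenced, 1 library per mouse. The authors aligned reads with HISAT2 2.1.0 to mm10 and assembled transcripts with StringTie 1.3.3b, and the deposited values are FPKM for 118434 transcripts per mouse. Here the FPKM of the Ensembl transcripts, 96032 of 96182 found in GENCODE M21, were summed per gene, and 22252 newly assembled transcripts (12.1 to 14.8% of all FPKM) were left out. FPKM are not counts, so limma 3.58.1 (R 4.3.3) with an intensity trend was fitted to log2(FPKM + 1), genes at 0.5 FPKM or more in at least 5 mice, on the groups compared. The study tested pairs of groups with DESeq, which needs counts not used here. Depth was estimated from whole-fragment steps of genes with 1 transcript, which 43.4 to 48.3% of low values met within 0.02 of a step, so fragment numbers are approximate and levels of low genes are imprecise. The step was searched only within a limited range, since values on fractions of a step also occur. Depth and fragment numbers could therefore be off by a common factor. In data simulated for AOM/DSS against Control, 129 of 194 genes changed by 1 on the log2 scale were found among 15752 genes. In the same data 12 unchanged genes were called, and smaller changes, such as those of most members, were not simulated. The members, lists, motifs and tests were chosen with earlier results of these data known. All 33 members are named, and of other lists the 3 called genes with the largest difference between AOM/DSS and Control. Genes named from lists beyond that rule (Wt1 and Il25, both under 0.5 FPKM) were chosen after their values were seen, and some genes the rule selects are not reported here. The alternatives were another scaling, filter, pseudocount, transcript choice, fit over all mice, a smooth muscle covariate and leaving out each mouse. Mouse numbers are not shared between groups, and replicate mice are separate animals.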

Additional observations from a re-analysis of the deposited data

Results flagged for a closer look

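Within the groups of 5 mice, 7 of 132 values of a member and group stood apart from the rest by Dixon's ratio, where chance alone gives about 1 in 20, or 6.6. Ret was at 11.7 FPKM in PZH + AOM/DSS mouse 35, with the next mouse of its group at 2.51. In AOM/DSS mouse 23 the peptide genes Gal (15 FPKM, next 4.81) and Cartpt (2.48, next 0.59) were both the highest, and Gfra1 was the highest in AOM/DSS mouse 33 (1.14, next 0.382). Among glial genes Gfap was high in PZH mouse 8 (2.32 FPKM, next 1.06) and Sox10 was low in PZH mouse 53 (0.166, next 1.13). Gap43 was the highest in Control mouse 50 (6.36 FPKM, next 4.30).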

How the results depend on the processing

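No paired analysis was possible because the groups share no replicate numbers. For AOM/DSS against Control, the 12 members called lower became 0 with the smooth muscle covariate and 8 to 12 when a mouse was left out, and the 1 called higher became 2 with all 20 mice in 1 model, 0 with the covariate and 1 to 2 without a mouse. The 4 lower by fold and unadjusted P became 11 with a pseudocount of 0.1, 2 with the covariate and 2 to 6 without a mouse. Hand2 reversed with the covariate, to 0.10. The 13 called members kept direction and call with another scaling, the pseudocount and all 20 mice, as did the 10 that passed a filter of 1 FPKM. With no filter 3 of 13 calls were lost (Hand2, Slc18a3 and Cdh19), and with the highest transcript 1 was lost (Slc18a3). For PZH + AOM/DSS against AOM/DSS, calls of lower members went from 0 to 1 (Ret) without PZH + AOM/DSS mouse 35, a range of 0 to 1. By fold and unadjusted P, 0 higher became 1 with the pseudocount and 0 to 1 without a mouse, and 1 lower became 0 with median-of-ratios scaling, the highest transcript or the covariate, and 0 to 1 without a mouse. For PZH + AOM/DSS against Control, 0 called lower became 3 with all 20 mice, and 0 lower by fold and unadjusted P became 1 with the scaling or the pseudocount and 0 to 1 without a mouse. For the interaction, called members ranged from 0 to 2 higher and 0 to 1 lower without a mouse. By fold and unadjusted P, 2 higher became 5 with the pseudocount, 0 with the covariate and 0 to 2 without a mouse, and 1 lower became 2 with the pseudocount, 0 with the scaling, the highest transcript or the covariate and 0 to 1 without a mouse. The cause of these shifts was not tested. The scaling moved the median of all genes in AOM/DSS against Control from 0.09 to 0.01 and that of the 33 members from -0.44 to -0.51. Levels below 0.5 FPKM rest on few fragments.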
